A study of Homo sapiens with 12 samples.

Results

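The SLC25 carriers are the 48 genes of the deposited count table whose symbol reads SLC25A followed by a number only, out of 62656 genes in all, and they were chosen by name and not by any measured value. Their RNA was measured by bulk RNA-seq in iMGLs, microglia-like cells differentiated from the human induced pluripotent stem cell line WTC11, an established line. The 3 clones labelled WT (J, K, L) and the 3 labelled LACTB KO (A, B, C) were each differentiated 2 times, for 12 libraries in all and 6 of each genotype. All clones came from CRISPR editing of the same line by non-homologous end joining, each cell line is 1 clone, and no library had a further treatment. Every culture was kept in medium with IL34, TGFb and MCSF, to which CX3CL1 and CD200 were added for the last days. The labels name the differentiation as a batch, and a library is named here by its clone and differentiation, so that K2 is clone K in differentiation 2.

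Mitochondrial carriers are the largest family of transport proteins in the inner mitochondrial membrane. Each folds into a bundle of membrane helices with a single central binding site, and most exchange a metabolite of the matrix for one of the cytosol. They set how ADP and ATP, phosphate, citrate and other carboxylates, acylcarnitines, amino acids, cofactors and iron cross this membrane. LACTB, a mitochondrial enzyme of the serine β-lactamase type, has been linked to succinylcarnitine, so carriers of succinate and of acylcarnitines are of interest here. The comparisons ask which carriers iMGLs express and how each differs by genotype, clone and differentiation.

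Libraries held between 24153233 and 28406943 estimated counts, and no pair of libraries held identical values. LACTB was at 71.3 to 97.9 CPM (counts scaled to library size after TMM normalisation) in the WT libraries, at 7.49 to 9.77 CPM in those of clones A and C, and at 44.4 and 51.6 CPM in those of clone B. Of 12 microglial markers, 12 were expressed and their mean log2 CPM lay between 7.84 and 8.53 in every library, although TMEM119 was at 0.315 to 10.7 CPM. Markers of stromal cells differed widely between libraries. The sum of 14 of them was 25.2 to 9990 CPM in WT and 22.8 to 1080 CPM in LACTB KO libraries, and DCN, LUM, TWIST1 and PDGFRA were at 0 in at least 1 library. Erythroid, granulocyte and mast cell, and pluripotent markers summed to at most 11.3, 1.53 and 0.786 CPM in a library, and 7 neural markers to 5.69 to 27.8 CPM.

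Of the 48 carriers, 39 passed edgeR's filter on low counts over the 12 libraries and are called expressed here, against 24.8% of all genes in the table. The table also holds pseudogenes and antisense genes, so this share is not one of protein-coding genes. A further 3 (SLC25A18, SLC25A48 and SLC25A53) exceeded the floor of 3 counts in at least 1 library without passing the filter. The other 6 (SLC25A2, SLC25A21, SLC25A31, SLC25A41, SLC25A47 and SLC25A52) never did, so at this depth their expression was not detectable. Levels are compared between genes as CPM per kb, CPM divided by the length of the merged exons. On this scale the expressed carriers ranged from 0.254 for SLC25A27 to 416 for SLC25A6, with a median of 4.67 against 3.69 for 15492 expressed genes with a length. SLC25A6 alone held 39.7% of the summed CPM per kb of the family, SLC25A6 and SLC25A5 together held 66.7%, and SLC25A3 brought this to 71.5%. The distributions over libraries overlapped for 35 of 38 neighbours in the order. The 3 exceptions were SLC25A6 over SLC25A5, SLC25A5 over SLC25A3, and SLC25A1 over SLC25A11.

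**Figure D1:**
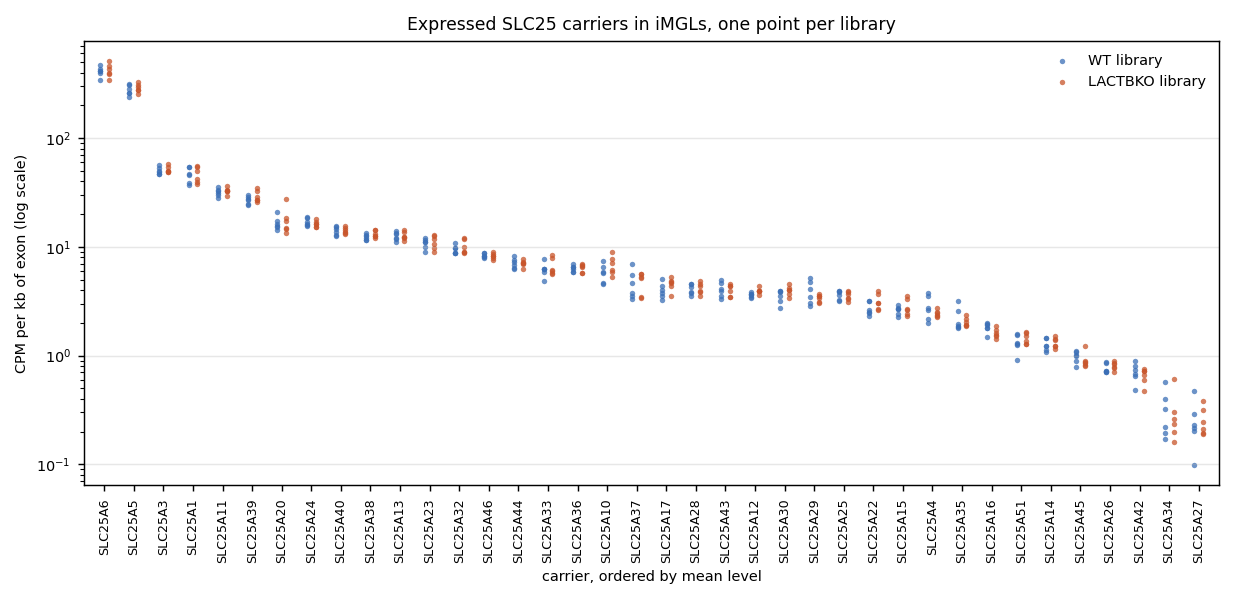
CPM per kb of exon (log scale) of 38 of the 39 expressed carriers, ordered by mean level, with 1 point for each of 12 libraries (blue, WT; orange, LACTB KO). SLC25A6 and SLC25A5 stand above all others at 416 and 284 CPM per kb on average, and WT and LACTB KO points overlap for every carrier shown.

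The carriers of adenine nucleotides and phosphate took 74.8% of the summed CPM per kb, with 7 of 9 members expressed. The ADP/ATP carriers, which export the ATP made in the matrix in exchange for ADP, are encoded by 4 paralogs. SLC25A6 (ENSG00000169100.14), on chromosome X from 1386152 to 1392113 of GRCh38, was at 531 to 795 CPM and 416 ± 49.2 CPM per kb (SD, n = 12). It lies in a region shared by both sex chromosomes and has a row for each in the table. The rows were summed, and the X row held 49.5% to 50.4% of the sum in every library. This split does not measure the level of each copy, because reads that fit both may have been divided by the authors' counting. SLC25A5, also on chromosome X (119468422 to 119471396), was at 374 to 513 CPM and 284 ± 27.0 CPM per kb (n = 12). SLC25A4, the form best known from heart and muscle, on chromosome 4 (185143266 to 185150382), reached 9.66 to 18.3 CPM and 2.63 ± 0.532 CPM per kb (n = 12). SLC25A31, the form known from testis, had 0 to 2 counts in a library. These paralogs share much of their coding sequence, so reads that fit several of them may have been divided by the authors' counting.

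The bases before the starts of these 4 genes are shown because they are paralogs from the most abundant carrier to one under the floor, together with those of SLC25A1 and SLC25A20, which are described below. Each stretch is the 150 bases before the RefSeq start in GRCh38.p14, 5′ to 3′ on the strand of the gene, with capitals for motif letters on either strand. The GC box was searched as GGGCGG. The box named for the letters CCAAT was searched as such, and the TATA box as TATAAA. The longer motifs of ETS factors and NRF1, given below, were also searched. They lie at chrX:1392114-1392263 (minus strand), chrX:119468294-119468443 (plus), chr4:185143116-185143265 (plus), chr4:127730250-127730399 (plus), chr22:19178737-19178886 (minus) and chr3:48898883-48899032 (minus).
SLC25A6: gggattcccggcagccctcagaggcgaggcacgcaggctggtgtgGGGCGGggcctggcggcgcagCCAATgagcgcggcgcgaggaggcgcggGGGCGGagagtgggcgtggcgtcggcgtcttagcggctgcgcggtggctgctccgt
SLC25A5: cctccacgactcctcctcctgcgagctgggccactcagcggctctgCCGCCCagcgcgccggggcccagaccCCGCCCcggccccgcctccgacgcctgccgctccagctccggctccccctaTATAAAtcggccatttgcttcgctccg
SLC25A4: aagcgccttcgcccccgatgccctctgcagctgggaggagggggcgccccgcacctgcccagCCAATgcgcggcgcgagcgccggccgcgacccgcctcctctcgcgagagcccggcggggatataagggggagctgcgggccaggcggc
SLC25A31: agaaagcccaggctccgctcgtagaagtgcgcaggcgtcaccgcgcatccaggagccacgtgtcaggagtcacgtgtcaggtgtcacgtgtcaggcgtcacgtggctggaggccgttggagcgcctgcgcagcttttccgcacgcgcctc
SLC25A1: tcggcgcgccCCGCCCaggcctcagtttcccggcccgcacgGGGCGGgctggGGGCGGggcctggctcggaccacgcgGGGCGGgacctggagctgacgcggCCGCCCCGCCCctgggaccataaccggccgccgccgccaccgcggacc
SLC25A20: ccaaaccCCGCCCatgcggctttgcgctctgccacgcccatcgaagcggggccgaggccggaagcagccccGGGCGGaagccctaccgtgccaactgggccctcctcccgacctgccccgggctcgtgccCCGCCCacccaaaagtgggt
The stretch of SLC25A31 held none of these motifs, those of SLC25A4 and SLC25A6 each held a CCAAT box, and those of SLC25A6, SLC25A5, SLC25A1 and SLC25A20 held GC boxes. The stretch of SLC25A5 also held a TATA box close to its start. Only exact letters were searched, so near forms, such as TATAAG in the stretch of SLC25A4, were not counted. A promoter window of 250 bases before to 50 bases after the start was given for 40 carriers, and not, among others, for SLC25A2, SLC25A16, SLC25A30, SLC25A32, SLC25A35, SLC25A37 and SLC25A41. A GC box, of which several can overlap, was in the window of 25 of 33 expressed carriers (75.8%) and of 3 of the 7 others (42.9%), against 44.7% of 27195 promoters. A CCAAT box was in 51.5% of expressed carriers against 35.7% of all promoters, and a TATA box in 6.06% against 12%. The letters CCGGAAGT of ETS factors were found in 3 of 40 windows (7.5%, against 4.45% of all), and CGCATGCGC of NRF1 in 0 of 40 (against 2.1%). The median GC content was 68.7% in the windows of expressed carriers, 55.7% in those of the others and 58.3% in all. All promoters here include those of genes not expressed in iMGLs, and promoters of expressed genes alone were not compared. These matches are descriptions of letters in a window.

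SLC25A3, the phosphate carrier that supplies ATP synthase, had 413 to 514 CPM, close to SLC25A5, but 51.0 ± 3.68 CPM per kb (n = 12) because its merged exons are long. With the length of the canonical transcript it was at 75.8 CPM per kb and still ranked 3. Of the calcium-regulated ATP-Mg/phosphate carriers, SLC25A24 was at 16.6 CPM per kb, SLC25A23 at 11 and SLC25A25 at 3.58, while SLC25A41 had 0 to 2 counts. SLC25A25 overlaps its antisense gene SLC25A25-AS1, which had 143 to 398 counts, and with a library kit that does not mark strand their reads cannot be told apart.

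Carriers of carboxylates and carnitine held 9.71% of the summed CPM per kb, with 4 of 5 members expressed. SLC25A1, which exports citrate for fatty acid and sterol synthesis, came next after SLC25A3 at 46.3 ± 7.12 CPM per kb. SLC25A11, the oxoglutarate carrier of the malate-aspartate shuttle, was at 32.2 ± 2.21 CPM per kb, and SLC25A20, the carnitine and acylcarnitine carrier, at 17.1 ± 3.81 CPM per kb (n = 12 each). SLC25A10, which exchanges succinate and malate for phosphate, was lower, at 6.34 ± 1.31 CPM per kb. SLC25A21, a carrier of oxoadipate, stayed at or under 3 counts.

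Cofactor and nucleotide carriers held 8.35% of the sum, with 11 of 12 members expressed. SLC25A39 and SLC25A40, which bring glutathione into mitochondria, were at 28.1 and 14.1 CPM per kb. The pyrimidine nucleotide carriers SLC25A33 and SLC25A36 were at 6.43 and 6.37 CPM per kb, the folate and FAD carrier SLC25A32 at 9.79, and the peroxisomal SLC25A17 at 4.27. SLC25A51, which imports NAD, was at 1.38 CPM per kb and its close copy SLC25A52 had at most 1 count. SLC25A26, the carrier of S-adenosylmethionine, depended most on the gene model, with 0.784 CPM per kb of merged exons and 8.39 CPM per kb of the canonical transcript. The canonical lengths also moved SLC25A20 from rank 7 to rank 9 and SLC25A39 from rank 6 to rank 4.

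Amino acid carriers held 4.33%, with 7 of 9 members expressed. The glycine carrier SLC25A38, needed for haem synthesis, and the aspartate/glutamate carrier SLC25A13 led them at 12.7 and 12.6 CPM per kb, and SLC25A12, the other aspartate/glutamate carrier, was at 3.77. The branched-chain amino acid carrier SLC25A44 was at 7.08 CPM per kb, the basic amino acid carrier SLC25A29 at 3.64, the glutamate carrier SLC25A22 at 2.94 and the ornithine carrier SLC25A15 at 2.71. Their relatives SLC25A18 and SLC25A2 had at most 12 and 3 counts in a library. The mitoferrins SLC25A37 and SLC25A28, which import iron, were at 4.67 and 4.13 CPM per kb. SLC25A37 is best known from erythroid cells. Of 11 erythroid markers 5 stayed at or under 3 counts, among them HBZ and HBE1 at 0, while HBB had 83 to 250 counts, EPOR 14 to 47, KLF1 3 to 18 and HBA1 0 to 30, and their part in the level of SLC25A37 was not tested. Of the relatives of the uncoupling proteins, SLC25A30 was at 3.75, SLC25A14 at 1.29 and SLC25A27 at 0.254 CPM per kb. SLC25A46, an outer-membrane protein that acts in mitochondrial fission, was at 8.30 CPM per kb, and the other members with less certain substrates were at 4.05 CPM per kb or below.

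Carriers varied little between libraries. The coefficient of variation over 12 libraries ran from 5.16% (SLC25A46) to 49.6% (SLC25A34) with a median of 12.1%, against 16.4% for all expressed genes. The highest library was at least 2 times the lowest for 4 of 39 carriers and for 40.4% of all expressed genes. The 4 were SLC25A27, SLC25A34, SLC25A37 and SLC25A20, with ratios of 4.80, 3.80, 2.09 and 2.02, and SLC25A27 and SLC25A34 had 9 to 41 and 13 to 57 counts. The expressed genes were not matched to the carriers by level, so these shares do not show a trait particular to carriers.

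No carrier passed the test between LACTB KO and WT clones after adjustment. Counts were summed over the differentiations of each clone, and edgeR's quasi-likelihood test set 3 LACTB KO sums against 3 WT sums for the 40 carriers that passed the filter. The count with an adjusted p under 0.05 was 0 of 40, as it was for all 17561 genes (0.0%), and DESeq2 and limma voom also gave 0 carriers. LACTB, the edited gene, was among the genes not called in edgeR, so a carrier that was not called is not shown to be unchanged. LACTB KO clones differed in LACTB, at 7.49 to 9.77 CPM in A and C and 44.4 and 51.6 CPM in B. Why LACTB was not called was not tested. At an unadjusted p under 0.05 there were 2 carriers (5.0%), against 6.38% of all genes. One of them, SLC25A18, passed the filter only through LACTB KO clones, and without it the count was 1 of 39. DESeq2 gave 1 carrier and limma voom 0. The edgeR count was 2 without WT clone L, 0 without LACTB KO clone A and 1 without any other clone. The estimates were small, 39 of 40 being under 0.25 in absolute log2 fold change, against 72.8% of all genes tested. All genes include those at low counts, and carriers were not compared with genes of like level. LACTB KO had the higher estimate for 28 of the 40 and the lower for 12, while 52.5% of all genes had a higher one, and the median log2 fold change was 0.048 against 0.010 over all genes. In bulk RNA a difference in the number of cells of a type and a difference in RNA per cell cannot be told apart.

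The carrier with the smallest p was SLC25A18, a mitochondrial glutamate carrier, at very low counts. It had 4, 6, 0, 3, 4 and 2 counts in J1, J2, K1, K2, L1 and L2, and 11, 12, 2, 9, 7 and 10 counts in A1, A2, B1, B2, C1 and C2. B1 lay among the WT libraries and the other LACTB KO libraries lay above all of them. The log2 fold change was 1.44 (SE 0.543, adjusted p = 0.759). It passed the filter on clone sums, and there only through the LACTB KO clones, where it was high, so its difference was favoured by the filter and is given as a description.

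SLC25A10, the dicarboxylate carrier of succinate and malate (ENSG00000183048.12, chromosome 17, 81712236 to 81721016), was next. J1 and J2 held 12.1 and 15.3 CPM, K1 and K2 held 19.5 and 12 CPM, and L1 and L2 held 15.1 and 17.2 CPM. Among LACTB KO libraries, A1 and A2 held 20.4 and 16 CPM, B1 and B2 held 23.6 and 13.8 CPM, and C1 and C2 held 15.5 and 18.7 CPM. Single libraries overlapped between genotypes, while all 3 LACTB KO clone means lay above all 3 WT clone means. WT libraries had a mean of 15.2 ± 2.90 CPM and LACTB KO libraries one of 18 ± 3.61 CPM (SD, n = 6 each). The log2 fold change was 0.25 (SE 0.0983, adjusted p = 0.765) and was 0.35 in differentiation 1 alone and 0.12 in differentiation 2 alone. With the stromal level of each clone as a covariate it was 0.23.

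The clone means of SLC25A12 and SLC25A30 also did not overlap, with LACTB KO above WT. This gave 3 of 39 expressed carriers with LACTB KO clones above, against 4.27% of all expressed genes, and 0 of 39 with LACTB KO clones below, against 5.4%. SLC25A12 was at 20.7 to 23.4 CPM in WT and 22.1 to 26.7 CPM in LACTB KO libraries (log2 fold change 0.13, SE 0.0778, adjusted p = 0.859). SLC25A30, a relative of the uncoupling proteins, was at 18.5 to 26.9 CPM and 23.2 to 30.8 CPM (log2 fold change 0.18, SE 0.0831, adjusted p = 0.811). SLC25A22 and SLC25A17 followed with log2 fold changes of 0.23 (SE 0.135) and 0.21 (SE 0.131), both with an adjusted p of 0.859.

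The carriers of acylcarnitines and citrate were close between genotypes. SLC25A20 averaged 31.4 ± 4.42 CPM over WT and 33.5 ± 9.65 CPM over LACTB KO libraries (log2 fold change 0.09, SE 0.124, adjusted p = 0.896, and -0.04 without clone A), and SLC25A1 at 92.3 ± 14.8 and 92.8 ± 15.1 CPM (0.02, SE 0.0630, adjusted p = 0.945). The oxoglutarate carrier SLC25A11 was at 78.3 ± 5.93 and 81.1 ± 5.07 CPM (0.06, SE 0.0700, adjusted p = 0.884). SLC25A6, SLC25A5 and SLC25A3 had log2 fold changes of 0.05 (SE 0.0788), 0.08 (SE 0.0838) and 0.05 (SE 0.0775), and with the stromal level as a covariate 0.11, 0.21 and 0.15. SLC25A4 and SLC25A29 were lower in LACTB KO by estimates of -0.19 each (SE 0.201 and 0.158). Without WT clone J that of SLC25A4 was 0.043, and that of SLC25A29 was -0.35 without WT clone K and -0.10 without WT clone J. The mitoferrins SLC25A37 and SLC25A28 had log2 fold changes of 0.06 (SE 0.132; 0.29 with the covariate) and 0.04 (SE 0.103), SLC25A13 of 0.02 (SE 0.0567), SLC25A39 of 0.12 (SE 0.0791) and SLC25A24 of -0.05 (SE 0.0663).

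By role, the median log2 fold change was 0.05 for adenine nucleotide and phosphate carriers, 0.09 for cofactor carriers, 0.07 for carboxylate and carnitine carriers and 0.11 for amino acid carriers. In each of these groups the carriers with an unadjusted p under 0.05 were 0 of 7, 0 of 11, 1 of 4 and 1 of 8, against 6.38% of all genes. The 1 of 8 was SLC25A18, which passed the filter only through LACTB KO clones and also entered the median of its group. Estimates were higher in LACTB KO (as for 52.5% of all genes) for 2 of 2 iron carriers and 3 of 3 uncoupling protein relatives and lower for 5 of 5 members with other or unassigned substrates, and none of these 10 had an unadjusted p under 0.05. Of the stromal markers, 12 of 12 tested had a lower estimate in LACTB KO (median log2 fold change -3.45). An unadjusted p under 0.05 was found for 10 of them, against 6.38% of all genes, and 0 passed the adjustment. Their mean log2 CPM overlapped between genotypes, at -0.61 to 5.89 in WT and -0.73 to 3.38 in LACTB KO libraries. It also differed within a clone, at -0.61 in K1 and 5.34 in K2. Neural and erythroid markers were lower in LACTB KO for 5 of 5 and 4 of 4 tested, 1 in each list with an unadjusted p under 0.05, and dividing-cell markers were higher for 9 of 10, with none. With the stromal level as a covariate 0 carriers passed after adjustment and the median of the carriers was 0.088.

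**Figure D2:**
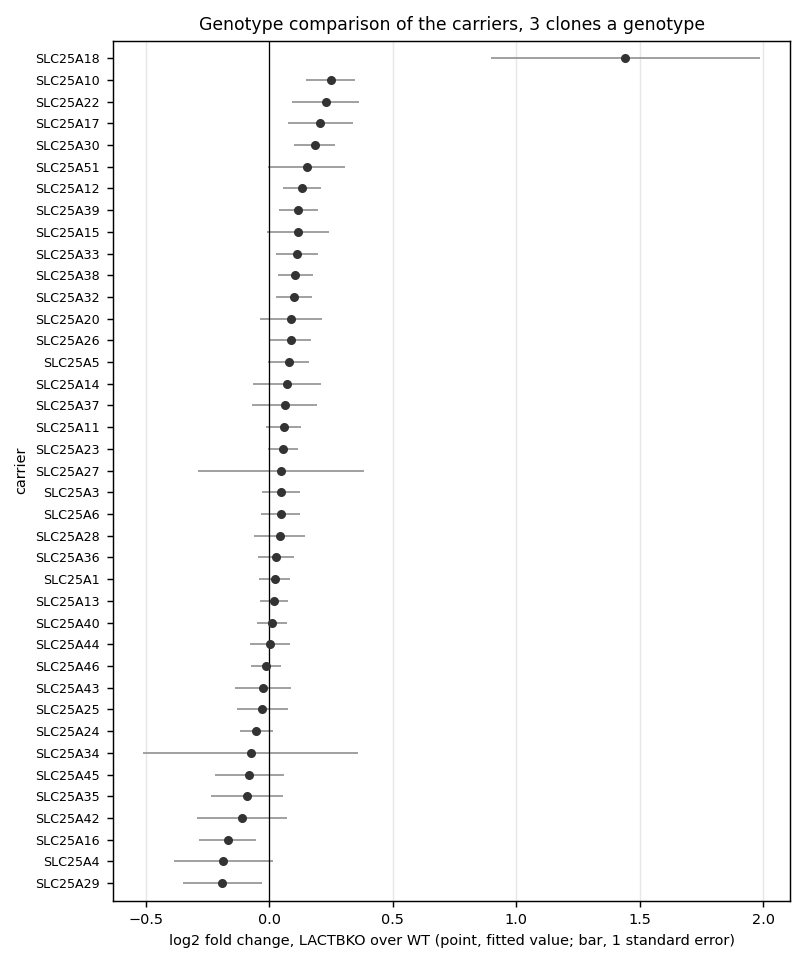
Log2 fold change of LACTB KO over WT for carriers tested on clone sums (point, fitted value; bar, 1 standard error). Apart from SLC25A18 at 1.44, whose libraries held at most 12 counts, all carriers shown lie between -0.19 and 0.25.

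Between differentiations 2 and 1 of the same clones, again no carrier passed the adjustment in edgeR. The labels do not state whether a differentiation number marks the same experiment in every clone, which limits what a pooled difference between the numbers stands for. With clone as a fixed effect on 12 libraries, 0 of 39 carriers had an adjusted p under 0.05, as 0.0% of all 15514 genes tested, and 5 of 39 (12.8%) had an unadjusted p under 0.05, against 9.95% of all genes. Without WT clone L the latter count was 3. DESeq2 gave 2 carriers after adjustment, SLC25A1 and SLC25A6. The share of all genes that DESeq2 called is not given here. Of the 39, 19 were higher and 20 lower in differentiation 2, with a median log2 fold change of -0.002 against -0.003 for all genes.

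SLC25A1, the citrate carrier (ENSG00000100075.10, chromosome 22, 19175581 to 19178739), had the smallest p. From differentiation 1 to 2 its level went from 94.2 to 92 CPM in J, 76.6 to 108 in K, 74.3 to 109 in L, 84.2 to 110 in A, 75.6 to 98.7 in B and 79.5 to 109 in C. In every clone but J, differentiation 2 was higher, and these values did not overlap with those of differentiation 1 in the same clones. The log2 fold change was 0.37 (SE 0.0799, adjusted p = 0.237 in edgeR). Without WT clone J it was 0.46 with an adjusted p of 0.0253, and DESeq2 gave an adjusted p of 0.0051, while over all alternatives the adjusted p ran from 0.0051 to 0.913.

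SLC25A6, the most abundant ADP/ATP carrier, was higher in differentiation 2 in 6 of 6 clones. Its level went from 642 to 734 CPM in J, 619 to 644 in K, 535 to 664 in L, 531 to 795 in A, 613 to 672 in B and 601 to 710 in C. The log2 fold change was 0.25 (SE 0.0767, adjusted p = 0.345), and the adjusted p of DESeq2 was 0.0477, the lowest of all alternatives, which reached 0.913. SLC25A5, its close paralog, was higher in 3 of 6 clones, with a log2 fold change of 0.01 (SE 0.0871).

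SLC25A23, a calcium-regulated ATP-Mg/phosphate carrier, was at 44 to 54.4 CPM in differentiation 1 and 54.1 to 62.3 CPM in differentiation 2 and also higher in 6 of 6 clones (log2 fold change 0.28, SE 0.0717, adjusted p = 0.294). SLC25A40, one of the glutathione carriers, had a log2 fold change of 0.16 (SE 0.0564, adjusted p = 0.394) and was higher in 5 of 6 clones. SLC25A38, the glycine carrier, was higher in 6 of 6 clones with a log2 fold change of 0.11 (SE 0.0557, adjusted p = 0.561). In all, 3 of 39 carriers were higher in every clone, against 3.69% of all expressed genes, and 0 of 39 were lower in every clone, against 2.73%.

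SLC25A20, the carnitine and acylcarnitine carrier (ENSG00000178537.10, chromosome 3, 48856926 to 48898904), was lower in differentiation 2 in 5 of 6 clones. The level went from 27.2 to 30.6 CPM in J, 32.8 to 28.8 in K, 39.6 to 29.5 in L, 51.8 to 27.4 in A, 32.8 to 28.1 in B and 35.1 to 25.7 in C. A1 was far above all other libraries, and J was the exception in direction. The log2 fold change was -0.34 (SE 0.128, adjusted p = 0.431), and -0.21 without LACTB KO clone A. It was -0.16 in WT clones alone and -0.53 in LACTB KO clones alone, and the test of that difference is the interaction given below. SLC25A35, whose substrate is less certain, was at 7.41 to 12.5 CPM and 7.09 to 8.08 CPM (log2 fold change -0.29, SE 0.133, adjusted p = 0.534).

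Of 10 dividing-cell markers 7 had a higher and 3 a lower estimate in differentiation 2 (median log2 fold change 0.183). None passed the adjustment in edgeR, and 4 had an unadjusted p under 0.05, against 9.95% of all genes. Their mean log2 CPM was lower in differentiation 2 in clones K (5.87 and 5.47) and B (5.86 and 5.69) and higher in the others. Single markers went opposite ways within these clones, so the mean does not describe each of them. TYMS went from 82.3 to 34.9 CPM in K and from 90.4 to 42.5 CPM in B. CCNB1 went from 17.9 to 26.2 CPM in K and from 19.5 to 28.7 CPM in B. The sum of the 10 markers ranged from 436 to 847 CPM in WT and 561 to 800 CPM in LACTB KO libraries with none at 0. Their part in the differences of the carriers was not tested. The stromal markers had a median log2 fold change of -0.38, and with the stromal level as a covariate the log2 fold change of SLC25A1 was 0.37.

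**Figure D3:**
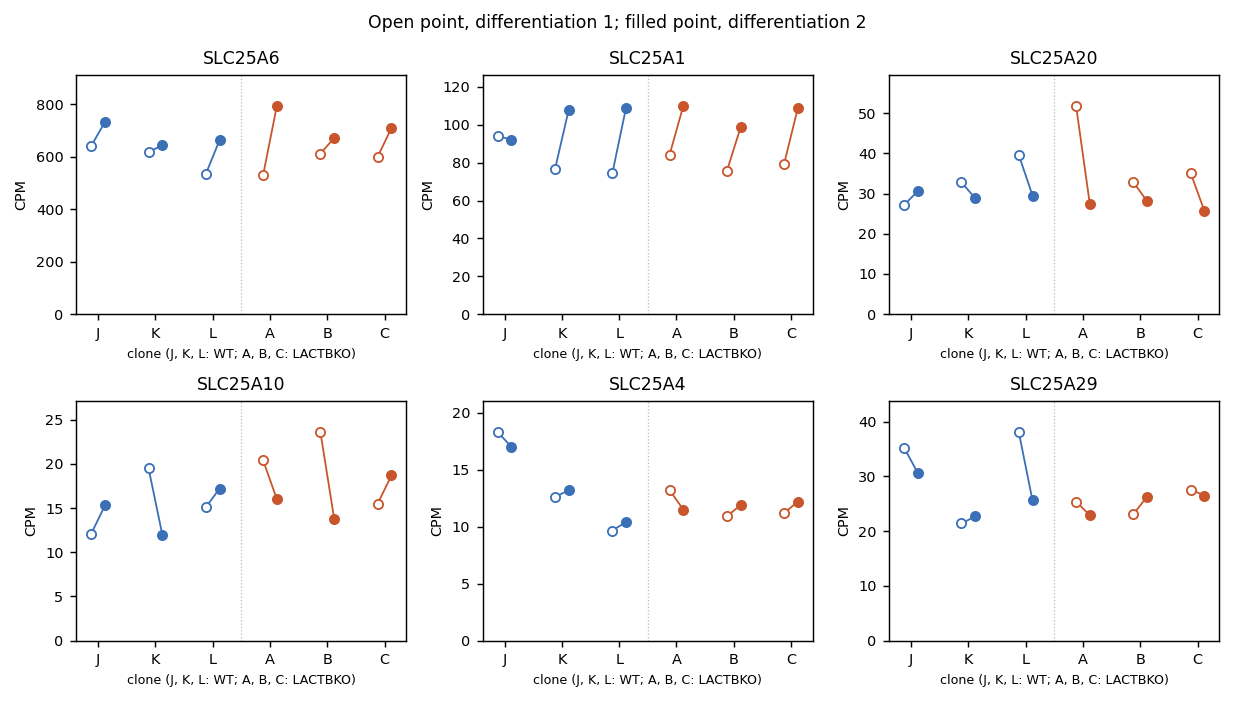
CPM of 6 carriers in each clone (blue, WT clones J, K and L; orange, LACTB KO clones A, B and C; open point, differentiation 1; filled point, differentiation 2; lines join the libraries of a clone). SLC25A6 was higher in differentiation 2 in all 6 clones and SLC25A1 in all but J, SLC25A10 went opposite ways in different clones, both J libraries were highest for SLC25A4, A1 stood out for SLC25A20, and J1 and L1 were highest for SLC25A29.

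The direction between differentiations was shared by some clones and not by others. Carriers higher in differentiation 2 numbered 26 of 39 in J, 19 in K, 25 in L, 16 in A, 16 in B and 23 in C, against 48.9% to 52.1% of all expressed genes in a clone. In clones K and B, 34 of 39 carriers (87.2%) had the same sign, against 71.1% of all expressed genes, and in clones L and C 31 of 39 (79.5%), against 70.5%. These pairs differ in genotype, share no library, and are not named as pairs in the labels or the methods. The pairs A and B, K and A, J and L, and J and C shared the sign of 29, 28, 28 and 26 of 39 carriers (74.4%, 71.8%, 71.8% and 66.7%), against 58.9%, 54.6%, 63.6% and 55.1% of all genes. The other 9 pairs shared that of 10 to 19 carriers (25.6% to 48.7%), against 42.1% to 50.5% of all genes. Within the WT genotype, K and L shared the sign of 11 of 39 (28.2%, against 43.8% of all genes). The fits take clones as independent and do not model such pairs.

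SLC25A10 and SLC25A37, chosen after their values were seen, are given as examples. For the succinate carrier SLC25A10 the log2 difference of differentiation 2 minus 1 was 0.34, 0.19 and 0.27 in clones J, L and C and -0.69, -0.35 and -0.77 in clones K, A and B. The mitoferrin SLC25A37 did the reverse, with -0.97, -0.73 and -0.62 in J, L and C and 0.32, 0.61 and 0.02 in K, A and B, and ranged from 26.4 to 55.1 CPM. The tests of differentiation on these carriers gave log2 fold changes of -0.17 for SLC25A10 (adjusted p = 0.819) and -0.23 for SLC25A37 (SE 0.214).

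**Figure D4:**
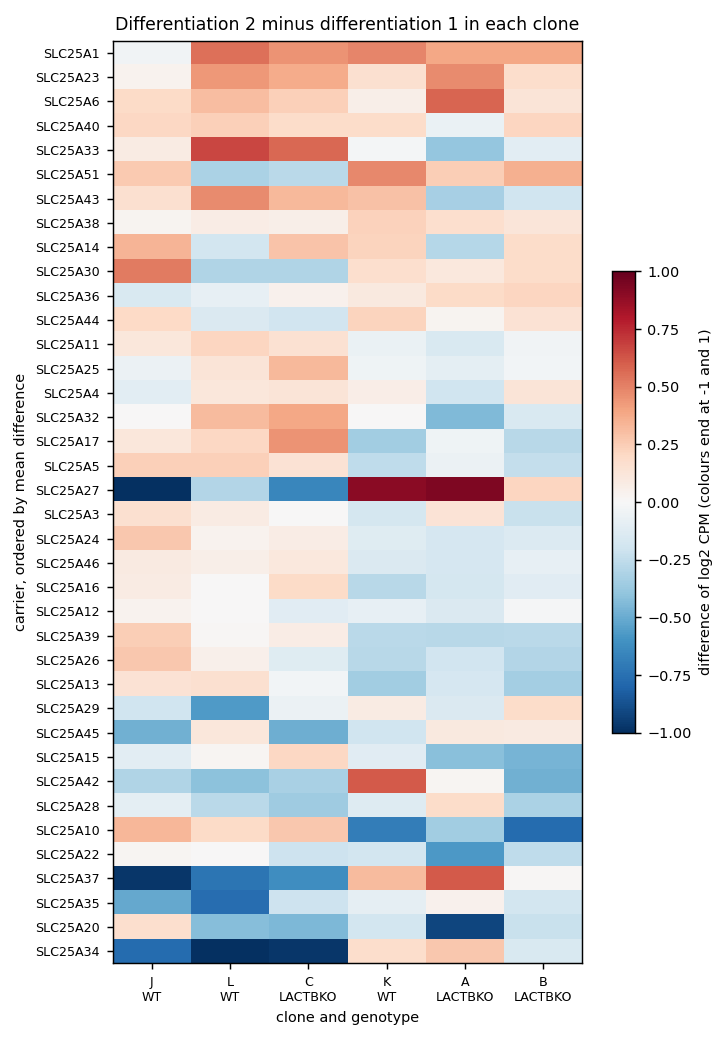
Difference of log2 CPM, differentiation 2 minus differentiation 1, for 38 of the 39 expressed carriers (rows, ordered by the mean) in each clone (columns, in the order J, L, C, K, A, B). SLC25A1, SLC25A23 and SLC25A6 at the top are positive in most clones, while SLC25A10 and SLC25A37 change sign between clones J, L and C and clones K, A and B.

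Clones of the same genotype differed for 1 carrier at an unadjusted p under 0.05. The F-test of edgeR over the 4 contrasts between clones of a genotype gave 0 of 39 carriers with an adjusted p under 0.05, against 0.0451% of all genes, and 1 of 39 (2.56%) with an unadjusted p under 0.05, against 8.93%. DESeq2, whose share of all genes called is not given here, gave 1 carrier after adjustment. In both it was SLC25A4, the ADP/ATP carrier best known from muscle (adjusted p = 0.359 in edgeR and 0.0259 in DESeq2, the lowest of its alternatives, which reached 1). SLC25A4 was at 18.3 and 17.0 CPM in J1 and J2, 12.6 and 13.2 CPM in K1 and K2, 9.66 and 10.4 CPM in L1 and L2, and 10.9 to 13.2 CPM in the LACTB KO libraries. Both J libraries lay above all others. Without WT clone J the adjusted p was 1 and no carrier had an unadjusted p under 0.05, while without LACTB KO clone B there were 2 such carriers. The stromal markers had a mean log2 CPM of 5.89 and 2.89 in J1 and J2 and of 5.34 in K2, where SLC25A4 was at 13.2 CPM. With the stromal level as a covariate the adjusted p of SLC25A4 was 0.288. The part of stromal cells in the level of SLC25A4 was not tested.

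SLC25A29, the carrier of basic amino acids, came next (adjusted p = 0.598). It was at 35.2 and 30.6 CPM in J and 38.1 and 25.6 CPM in L, against 21.4 and 22.7 CPM in K, and at 22.9 to 27.6 CPM in the LACTB KO libraries. SLC25A34, SLC25A22 and SLC25A25 had an adjusted p of 0.630, 0.779 and 0.789.

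The genotype difference of a carrier was not found to depend on the differentiation. The interaction test of edgeR gave 0 of 39 carriers at an adjusted p under 0.05 (0.0% of all genes) and 0 at an unadjusted p under 0.05 (0.902% of all genes), and DESeq2 gave 0 by either measure. Without WT clone K and without LACTB KO clone C, 1 carrier had an unadjusted p under 0.05. The smallest p was that of SLC25A20, whose change between differentiations was lower in LACTB KO by -0.39 on the log2 scale (SE 0.232, adjusted p = 0.999). Estimates of the next carriers were 0.20 for SLC25A36 (SE 0.119), -0.38 for SLC25A43 (SE 0.247), -0.29 for SLC25A22 (SE 0.195), 0.34 for SLC25A35 (SE 0.261) and -0.22 for SLC25A26 (SE 0.195), each with an adjusted p of 0.999. With 3 clones a genotype these standard errors are large beside the estimates.

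The sum of squares of log2 CPM over 12 libraries was divided between genotype, clone within genotype, differentiation and the rest, which hold 9.09%, 36.4%, 9.09% and 45.5% of the degrees of freedom. The median share of genotype was 5.41% for carriers and 6.04% for all expressed genes, that of clone was 32.2% and 35.8%, that of differentiation 7.91% and 5.95%, and that of the rest 46.2% and 39.5%. Genotype was the largest share for 1 carrier, SLC25A12 (44.3%), differentiation for 7, clone for 10 and the rest for 21. Differentiation took 75.2% for SLC25A1, 68.9% for SLC25A23, 61.5% for SLC25A40 and 59.7% for SLC25A6, and clone took 84.3% for SLC25A4 and 64.1% for SLC25A25.

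**Figure D5:**
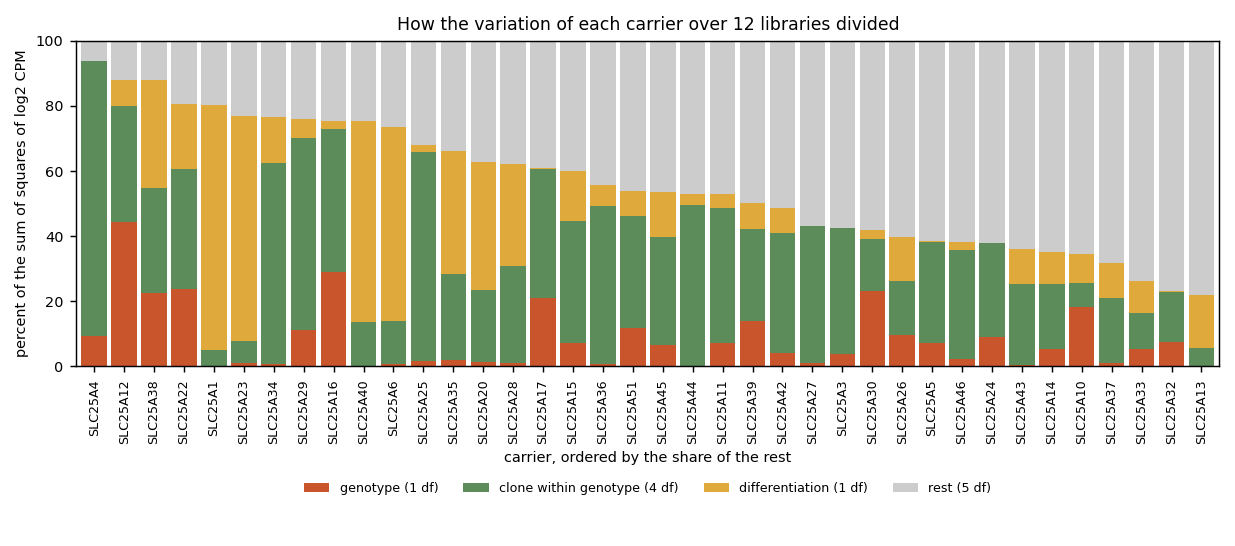
Percent of the sum of squares of log2 CPM over 12 libraries that fell to genotype (orange), clone within genotype (green), differentiation (yellow) and the rest (grey) for 38 of the 39 expressed carriers, ordered by the rest (df, degrees of freedom). Genotype was the largest share for SLC25A12 alone, clone took 84.3% for SLC25A4 and differentiation 75.2% for SLC25A1.

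Among relatives and partners of the carriers, few genes passed an unadjusted p of 0.05. Of 5 family members under other names 4 were expressed, and UCP2, an uncoupling protein typical of immune cells, was at 252 to 313 CPM and 105 CPM per kb, above every SLC25A gene but SLC25A6 and SLC25A5. Between genotypes 0 of 4 had an unadjusted p under 0.05, and UCP2 had a log2 fold change of 0.05 (SE 0.0628, adjusted p = 0.891). Between differentiations UCP2 was the 1 of 4 with an unadjusted p under 0.05, against 9.95% of all genes. Its log2 fold change was 0.15 (SE 0.0539, adjusted p = 0.395).

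Carriers enter mitochondria through the receptor TOMM70, the TOM channel, small TIM chaperones and the TIMM22 complex. All 12 listed genes of this route were expressed, and 11 of 12 had a higher estimate in LACTB KO, against 52.5% of all genes. The median estimate was 0.09 (log2), and values were as small as 0.001 for TOMM20. Only 1, TOMM40, the channel itself, had an unadjusted p under 0.05 (0.26, SE 0.0972, adjusted p = 0.758), against 6.38% of all genes. TIMM10B was the 1 of 12 with an unadjusted p under 0.05 between differentiations (0.24, SE 0.0710, adjusted p = 0.343), against 9.95% of all genes. Of 10 genes of other routes (VDAC, pyruvate carrier and sideroflexins) 10 were expressed and 0 had an unadjusted p under 0.05 between genotypes, the smallest being that of SFXN2 (log2 fold change 0.26, SE 0.111, adjusted p = 0.794). Between differentiations 2 of these 10 had one, against 9.95% of all genes. They were the pyruvate carrier subunit MPC2 (0.24, SE 0.0680, adjusted p = 0.309) and SFXN3 (-0.29, SE 0.0967, adjusted p = 0.385). In these 3 lists 0 genes passed the adjustment in any comparison in edgeR, and none had an unadjusted p under 0.05 between clones.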

How the data were processed

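Bulk RNA-seq of polyA RNA from 12 iMGL libraries (6 WT and 6 LACTB KO, from 3 clones per genotype and 2 differentiations per clone, grouped by the sample labels) was analysed. The authors prepared TruSeq libraries with a kit that does not mark strand, sequenced them from both ends, trimmed adapters with Cutadapt 2.6 and aligned reads to hg38 with STAR 2.5.3a. They deposited estimated counts per gene without normalization between libraries. The counting tool, its annotation and its strand setting are not given in the sources used here. The plan had assumed whole counts, but 10.8% to 11.5% of the values of a library were fractions. Values of 47 Y copies of pseudoautosomal genes were added to their X rows, and sums were rounded. Each clone holds 1 library of each differentiation, and nothing in the labels pairs WT with LACTB KO clones. After removal of the genotype means, libraries of the same differentiation and different genotype had a mean correlation of 0.0371 (-0.508 to 0.624, 18 pairs).

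Differences were tested with edgeR 4.0.16 in R 4.3.3 (TMM, filterByExpr with a minimum count of 10, glmQLFit, glmQLFTest, Benjamini-Hochberg adjustment over all genes tested, threshold 0.05). Genotype was tested on counts summed per clone. Differentiation, clone and interaction were tested on 12 libraries with clone as a fixed effect. An exact permutation test of 3 against 3 clones cannot give a p below 0.1 and was not used. The mixed model of the study, fitted with DREAM, was not run. CPM are counts scaled to library size after TMM, log2 CPM have a prior count of 2, SD are over libraries, and the floor was 3 counts. P-values measure the spread between clones or between libraries of a clone, each clone being 1 line. Lengths are merged exons of GENCODE 44, and promoter windows come from RefSeq on GRCh38.p14.

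Fold changes are given for the 6 carriers with the smallest p in each comparison, the 8 with the highest CPM per kb, and 12 carriers of citrate, dicarboxylates, oxoglutarate, aspartate, basic amino acids, carnitine, iron and adenine nucleotides. Of other lists, up to 3 genes with the smallest p were named per comparison, as far as they passed an unadjusted p of 0.05 or came first. Of the expressed carriers 1, and of the marker genes 1, are counted but not reported by name here. The members, lists and tests were chosen with earlier results of these data known. Alternatives were DESeq2 1.42.0, limma 3.58.1 (voom with clone as random effect), RLE normalization, no filter, the stromal level as a covariate, each differentiation or genotype alone, and each clone left out. Separate rows for the Y copies and canonical transcript lengths were added after seeing the data. The fits were tested on simulated counts with known changes. Unchanged genes had the same mean in every clone there, and the changes were larger than most estimates of the carriers. The simulation therefore does not show how the fits treat spread between clones or such small differences.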

Additional observations from a re-analysis of the deposited data

Results flagged for a closer look

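In 76 groups (38 carriers in 2 genotypes of 6 libraries each), 4 had 1 library far from the other 5, its gap to the nearest being over 0.625 of the range of the group (Dixon's critical value for 6 samples), and chance alone flags about 1 group in 20. SLC25A16, a carrier linked to coenzyme A, was at 11.6 CPM in WT library K2 against 14.1 to 15.6 CPM (gap 0.632 of the range). SLC25A20, the acylcarnitine carrier, was at 51.8 CPM in LACTB KO library A1 against 25.7 to 35.1 CPM (0.638). SLC25A45 and SLC25A34, whose substrates are less certain, were at 9.72 and 2.04 CPM in LACTB KO library C1 against 6.31 to 6.97 CPM (0.806) and 0.538 to 1.01 CPM (0.690). What sets these libraries apart was not tested.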

How the results depend on the processing

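After adjustment, 0 carriers differed by genotype under every alternative run, and 0 by interaction. For differentiation, DESeq2 gave 2 carriers, and leaving out 1 clone gave 0 to 1 (SLC25A1 without WT clone J, log2 fold change 0.34 to 0.46 over the clones left out); for clone, DESeq2 gave 1 (SLC25A4). The cause was not tested, and the shares of all genes that DESeq2 called are not given here. Genotype counts at an unadjusted p under 0.05 (2) were 1 without the filter, with DESeq2 and with the stromal covariate, 0 with the differentiation as replicate block on 12 libraries, with limma voom and in either differentiation alone, and 0 to 2 with 1 clone left out. The fit of differentiation without the replicate block of clones gave 0 after adjustment. The median genotype log2 fold change (0.048) was 0.088 with the stromal covariate and 0.012 in differentiation 2 alone. Estimates near 0 changed sign. Genotype estimates were -0.0158 for SLC25A1, -0.0433 for SLC25A20, 0.0525 for SLC25A24 and 0.13 for SLC25A4 with the stromal covariate; -0.0435 for SLC25A6, -0.0364 for SLC25A1, 0.0068 for SLC25A24 and -0.17 for SLC25A37 in differentiation 1 alone; and -0.0028 for SLC25A11, -0.13 for SLC25A20 and -0.0772 for SLC25A13 in differentiation 2 alone. Differentiation estimates were 0.0103, 0.0098 and 0.0139 for SLC25A3 and 0.0039, 0.0003 and 0.051 for SLC25A24 (no filter, stromal covariate, WT clones alone), and -0.0519 for SLC25A5, -0.0093 for SLC25A11 and 0.0034 for SLC25A37 in LACTB KO clones alone. With 1 clone left out, genotype estimates ran from -0.36 to 0.043 for SLC25A4, -0.02 to 0.0906 for SLC25A28, -0.0015 to 0.0946 for SLC25A6, -0.0148 to 0.0647 for SLC25A1, -0.0377 to 0.16 for SLC25A20 and -0.0726 to 0.15 for SLC25A37. Differentiation estimates ran from -0.0338 to 0.0577 for SLC25A5, -0.0247 to 0.0369 for SLC25A3, -0.0538 to 0.0341 for SLC25A24 and -0.0049 to 0.0768 for SLC25A4. Depth limits SLC25A18, SLC25A27 and SLC25A34, at 57 counts or fewer in a library.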
